A study of Mus musculus with 2 samples.

Results

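The cells described here are cluster 7 of a droplet single-cell RNA study of mouse salivary gland stroma, a ductal-like cluster found after epithelial cells had been depleted. Its members are the cells that the authors' clustering put in cluster 7 of 12, and the deposited means allow 479 such cells to be counted among 15605, with 201 of 4199 mock cells and 278 of 11406 ligated cells. The mice were C57BL6/J females, 14 weeks old, and each library pooled submandibular and sublingual tissue of 2 operated glands. In the ligated library a metal clip had closed the main ducts for 14 days, and in the mock library the ducts had been exposed without a clip and the mice kept for the same 14 days. Magnetic depletion against EpCAM (epithelium) and Ter119 (red cells) had been done repeatedly on both suspensions, followed by dead cell removal, so cluster 7 holds what remained of the ducts and is not a sample of them. Each condition has 1 library, so nothing below was tested against replicate spread, and every difference is between these 2 libraries.

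Salivary ducts carry the acinar fluid to the mouth and change it on the way, taking up sodium and chloride and adding potassium, bicarbonate and secreted proteins. Striated duct cells drive this with sodium pumps and densely packed mitochondria. In rodents the granular convoluted ducts add glandular kallikreins, a family of serine proteases, together with growth factors such as EGF. Obstruction of the duct is known to cause loss of acinar cells, while ducts persist.

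A level is given as UMIs per 10000, that is, the share of a cell's captured RNA molecules (counted by unique molecular identifiers, UMIs) that came from the gene, averaged over the cells of a cluster. Cluster 7 made up 4.79% of the mock cells (95% interval by the exact Clopper-Pearson method, 4.16 to 5.48) and 2.44% of the ligated cells (2.16 to 2.74). Only counting error enters these intervals, and the shares depend on how completely each suspension was depleted. UMI totals could be recovered for 99 mock and 159 ligated cells of the cluster, with medians of 1082 (range 521 to 44794) and 976 (504 to 16509). The recovered cells of the other 11 clusters had medians of 7960 and 7358. A single UMI in a cell of median total adds 0.046 to a mock value and 0.0369 to a ligated value, so levels below about 0.138 (mock) and 0.111 (ligated) rest on fewer than about 3 UMIs.

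The label held for most of its markers. Klk1, the tissue kallikrein, stood at 666.1 with both libraries together, against 18.5 in cluster 8, the next highest. Krt8 and Krt18, the keratin pair of simple epithelia, stood at 5.33 and 18.2, against at most 0.67 and 1.04 elsewhere. Krt19, a duct keratin, was close to the floor at 0.0647 in the mock and 0.165 in the ligated cells. Of 16 duct markers, 14 were highest in cluster 7. Wfdc18, at 5.31 in cluster 7 and 14.9 in cluster 8, was not. Because the clusters were formed from these same genes, their levels describe the cluster and test nothing.

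Among genes with a level of at least 2 in cluster 7, 63 of 720 (8.75%) stood at least 5 times above every other cluster after 0.1 was added to both. The first 20 by this ratio held Klk1 and 6 of its Klk1b paralogs, Krt7 and Krt18, and Fxyd2, the gamma subunit of the sodium pump, at 225.0 against 5.44 in cluster 8. They also held Tfcp2l1, a transcription factor of duct and kidney tubule cells (12.4 against 0.397), Atp6v0d2, a proton pump subunit (3.51 against 0.0674), and Ckmt1, the mitochondrial creatine kinase (6.18 against 0.227). Crisp3, a cysteine-rich secretory protein of the gland, stood at 16.2 against 0.30, Wfdc2, a small secreted protease inhibitor, at 12.3 against 0.276, and the mucosal chemokine Cxcl17 at 4.92 against 0.221. For 15 of the 20 the next highest cluster was cluster 8, a cluster of 289 cells with the highest summed acinar markers.

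**Figure D1:**
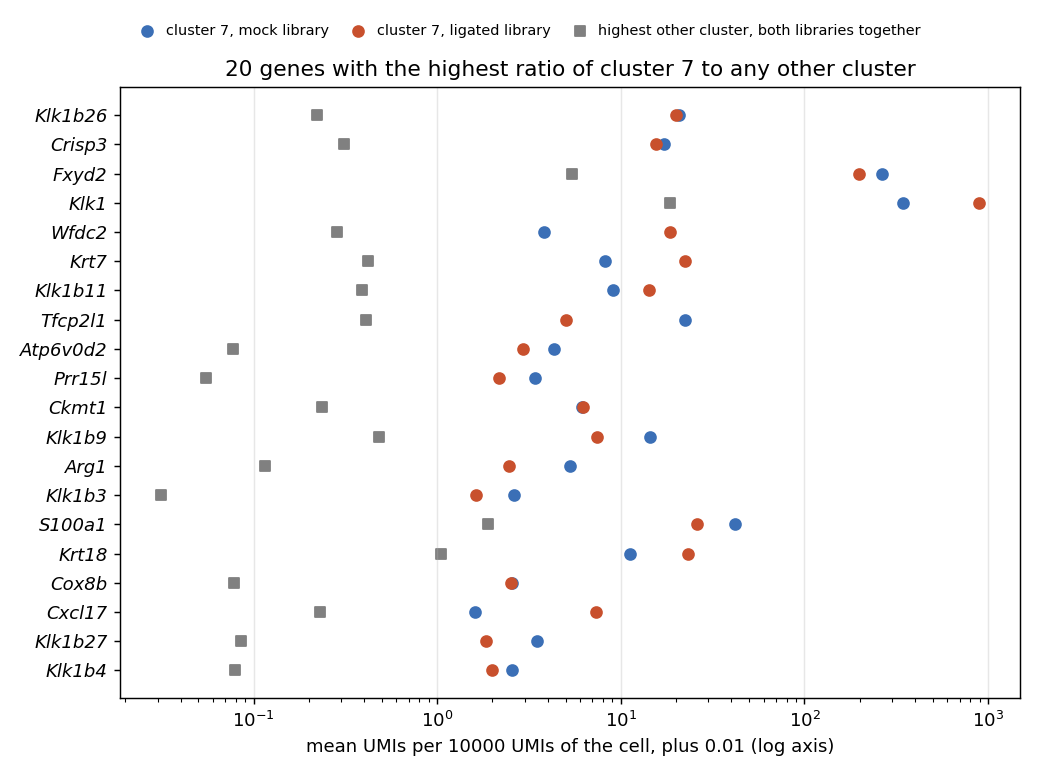
Levels of the 20 genes with the highest ratio of cluster 7 to any other cluster, in mean UMIs per 10000 UMIs plus 0.01 on a log axis. Circles give cluster 7 in the mock and the ligated library and grey squares give the highest other cluster, which lies left of both circles for all 20 genes, from Klk1b26 (0.21 in cluster 8) to Klk1b4.

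Of genes of other duct and gland cells, most were under the minimum level of 1 used below, with exceptions. Atp6v0d2 (above) is also an ionocyte gene, Cd24a, a surface glycoprotein of progenitor cells, stood at 2.93 and 4.51, and the acinar genes Prol1 and Car6, a secreted carbonic anhydrase, stood at 1.62 and 6.28 and at 1.10 and 1.36. The basal and progenitor genes Krt5, Krt14, Kit and Trp63 stood at 0.0699, 0.104, 0.0457 and 0 in the mock and at 0, 0.151, 0.0373 and 0 in the ligated cells. Foxi1 and Ascl3, transcription factors of ionocytes, stood at 0.25 and 0.402 in the mock and 0.0769 and 0.983 in the ligated cells. Of the acinar markers, Aqp5, the water channel, stood at 0.0461 in the mock and 0.00284 in the ligated cells, and Smgc, a secreted mucin-like protein, at 0.30 and 0. The growth factor gene Egf stood at 0.182 in the mock and 0.056 in the ligated cells, and the granular duct hormone gene Ren1 was at 0 in both.

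The kallikreins are shown first by sequence, to give a view of how alike these neighbouring genes are upstream of their starts. The 14 genes Klk1 and Klk1b lie within 279 kb on chromosome 7 (chr7:43950664-44229618, mm10). In the 250 bases before the gene start (RefSeq, GRCm38.p6), 9 of these 14 genes hold the letters CTCTGTCAG on either strand, against 138 of 32851 promoter windows in all (0.42%). The 50 bases that end with these letters are given for 6 of them, 5′ to 3′ on the plus strand, with capitals where a base differs from Klk1.
Klk1: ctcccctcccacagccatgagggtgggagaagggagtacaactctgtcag
Klk1b3: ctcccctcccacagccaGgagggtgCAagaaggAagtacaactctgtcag
Klk1b4: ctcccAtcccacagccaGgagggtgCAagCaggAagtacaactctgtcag
Klk1b9: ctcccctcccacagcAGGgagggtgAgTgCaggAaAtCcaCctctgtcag
Klk1b11: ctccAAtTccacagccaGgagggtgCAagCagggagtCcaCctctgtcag
Klk1b22: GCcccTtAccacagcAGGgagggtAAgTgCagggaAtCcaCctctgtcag
The stretches lie at chr7:44225289-44225338 (Klk1), chr7:44198067-44198116 (Klk1b3), chr7:44207267-44207316 (Klk1b4), chr7:43975907-43975956 (Klk1b9), chr7:43995717-43995766 (Klk1b11) and chr7:44112512-44112561 (Klk1b22). Klk1b3 differs from Klk1 at 4 of the 50 bases, Klk1b4 at 6, Klk1b11 at 9, Klk1b9 at 10 and Klk1b22 at 14. The letters were picked from these windows and describe them only.

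Which end of the transcripts was read is not given in the sources used here, and the 3′ ends were compared. Over the last 500 bases of each transcript (GENCODE M21), a median of 90.7% of windows of 60 bases occurred in no other gene of the family. The share was 77.8% for Klk1, and Klk1b5 shared 86 of its 441 windows with Klk1. The lowest shares were those of Klk1b21 (73.5%), Klk1b24 (74.8%) and Klk1 itself, and reads of these genes are the hardest to assign by this measure.

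Klk1 was the highest gene of cluster 7 in both libraries, at 345.9 in the mock and 897.6 in the ligated cells, which is 3.46% and 8.98% of the UMIs. The difference, written throughout as log2((ligated + 0.1)/(mock + 0.1)), was 1.38. The Klk1b genes did not follow Klk1. The 13 with a row summed to 64.5 in the mock and 57.3 in the ligated cells, and 9 of the 13 were lower in the ligated library. Klk1b26, the highest of them, stood at 20.7 and 19.9 (difference -0.06). Klk1b9, known for processing EGF, stood at 14.4 and 7.42 (-0.95), Klk1b27 at 3.50 and 1.82 (-0.91), and Klk1b22 at 2.29 and 1.61 (-0.48). Klk1b11 stood at 9.03 and 14.2 (0.65). Of 18 kallikrein genes listed, 11 could be compared by the size rule described below, and Klk1 was the 1 gene past it, a share near that over all genes (10.8% higher, 16.6% either way). Klk1b transcripts together amounted to 18.6% of the Klk1 level in the mock and 6.38% in the ligated cells.

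Kallikrein RNA was also found at low levels in cells of other types. Averaged over the other 11 clusters, Klk1 stood at 0.415 in the mock and 3.13 in the ligated library. The summed Klk1b level there was 37.9% of that of Klk1 in the mock and 6.66% in the ligated library, so the lower proportion of Klk1b in the ligated library was found outside cluster 7 too. Over 10 duct markers at 1 or more in both libraries, the level in another cluster was at a median 0.129% of the cluster 7 level in the mock library (0 to 4.04% by cluster) and 0.445% in the ligated library (0.223 to 3.99%). Cluster 8 gave the highest share in both. With the mean over the markers in place of the median the values were 0.861% and 0.772%, so the order of the libraries depends on this choice.

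**Figure D2:**
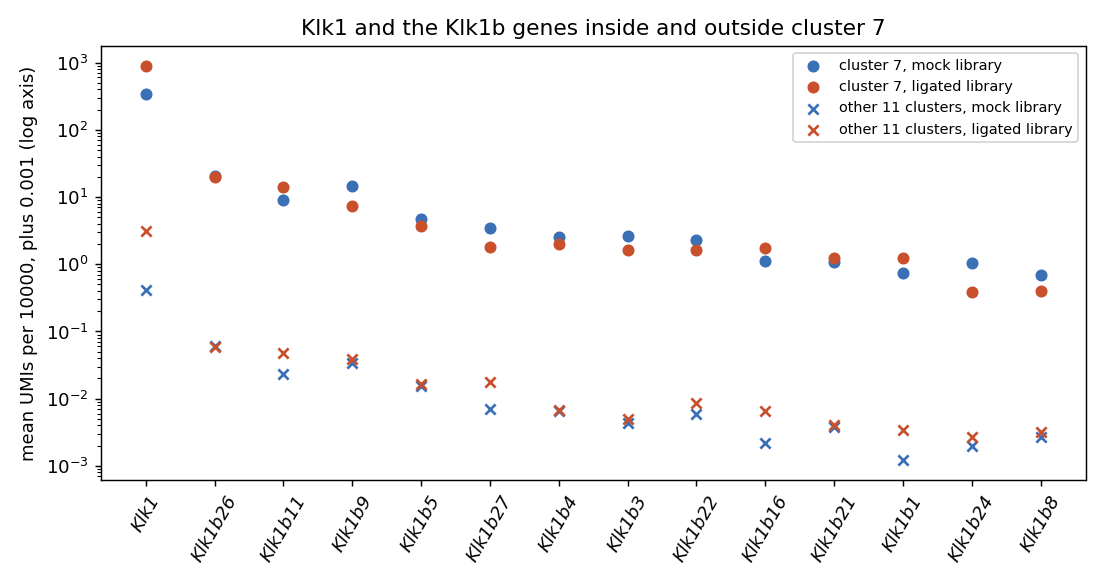
Mean UMIs per 10000 UMIs plus 0.001, on a log axis, of Klk1 and the 13 Klk1b genes. Circles show cluster 7 and crosses the cell-weighted mean of the other 11 clusters, and only for Klk1 are the mock (345.9) and ligated (897.6) circles apart by a factor of more than 2 with the ligated one higher.

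For the comparison of the libraries over all genes, a gene was tested for size where the mean of its 2 values was at least 1 and its symbol was above 0 somewhere in both libraries, and it was called past the size rule at a difference of at least 1 in either direction. A gene below 1 in 1 library could be compared only if it was above 1 in the other. Its direction then followed from the minimum mean. Of 1339 genes, 145 were higher in the ligated library (10.8%) and 77 were lower (5.75%), 16.6% in either direction, with a median difference of -0.10. Of the higher genes, 72 had a difference of at least 1 in the same direction in no other compared cluster, and of the lower ones 65. The other compared clusters are the 8 with at least 50 cells in each library, and no minimum mean was applied in them. Another 25 higher and 4 lower genes had such a difference the same way in at least 5 of these 8 clusters. A gene far below 0.1 in those clusters can hardly reach a difference of 1 there, because 0.1 was added to both values. Cldn3, for example, stood at 0.00089 (mock) and 0.0087 (ligated) in the rest of the libraries. The matching share over all 1339 genes is not given here. The counts of 72 and 65 thus do not show that a change was particular to these cells.

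**Figure D3:**
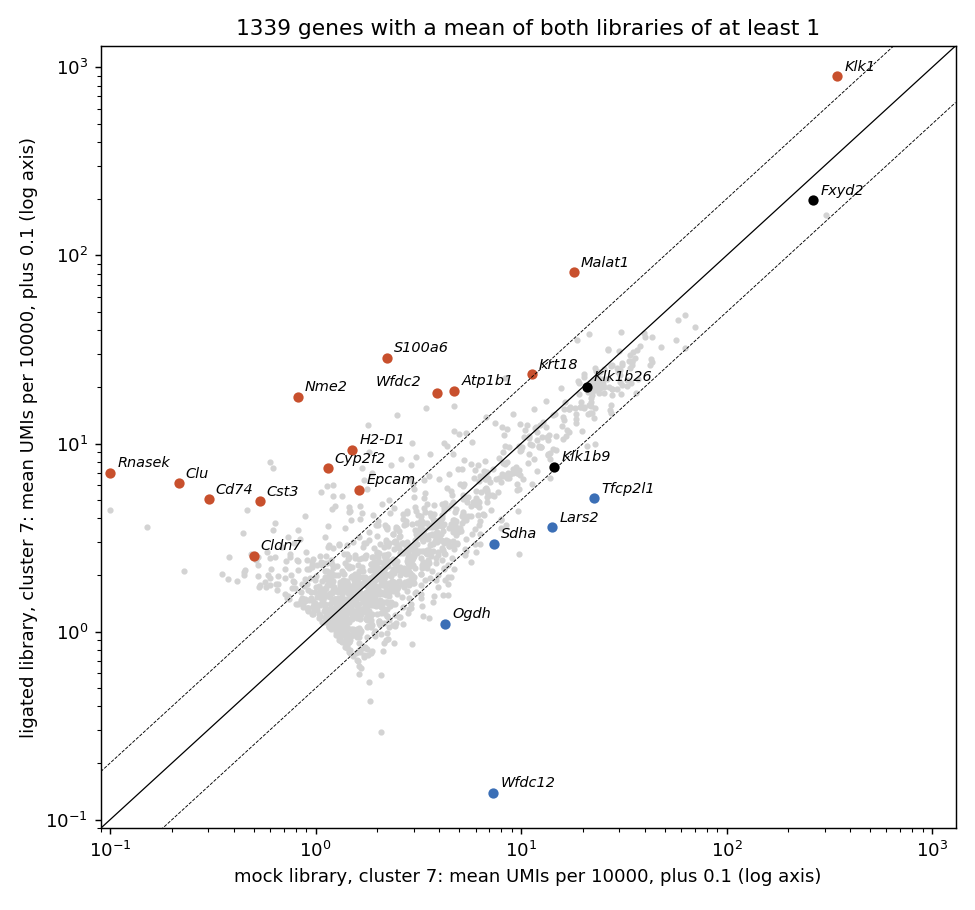
Level of 1339 genes in cluster 7 of the mock library (x axis) and the ligated library (y axis), in mean UMIs per 10000 plus 0.1 on log axes. The solid line marks equal values and the dashed lines a difference of 1 in log2, with named genes past the rule in red (higher in the ligated library) or blue (lower) and other named genes in black, and Wfdc12 (7.23 and 0.0394) lies farthest below the line.

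Genes of epithelial keratins and cell junctions that could be compared were mostly higher in the ligated cells. Of 26 genes of epithelial keratins and cell junctions, 8 could be compared, and 6 of them were past the rule, all higher, where 10.8% of all genes were. Krt7 stood at 8.23 in the mock and 22.3 in the ligated cells (1.43) and Krt18 at 11.2 and 23.3 (1.05). Epcam, the adhesion molecule against which the depletion was directed, stood at 1.53 and 5.59 (1.80). The claudins of tight junctions Cldn3 and Cldn7 stood at 0.347 and 1.98 (2.22) and at 0.399 and 2.44 (2.34). Spint2, an inhibitor of membrane serine proteases, stood at 0.802 and 2.56 (1.56). Cldn3, Cldn7 and Spint2 were below 1 in the mock cells, so their direction followed from the minimum mean. Krt8 (3.89 and 6.37, difference 0.70) and the plaque protein gene Jup (1.55 and 0.92, -0.70) did not pass. The other genes of the list were under the minimum mean or not listed in both libraries, and they went in both directions. Cdh1 stood at 0.0508 and 0.282, while Esrp1 stood at 0.917 and 0.197 and Cldn10 at 0.172 and 0.128.

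Genes of the sodium pump and its regulators differed from each other. Atp1b1, the beta subunit, stood at 4.62 in the mock and 19.0 in the ligated cells (2.02). Fxyd2 stood at 263.5 and 197.1 (-0.42), and Fxyd3, another FXYD regulator of the pump, at 0.385 and 2.48 (2.41). Atp6v0d2 stood at 4.33 and 2.92 (-0.55). Of a list of 34 genes for duct ion transport, 5 could be compared. Atp1b1 and Fxyd3 were higher past the rule, where 10.8% of all genes were. The direction of Fxyd3, below 1 in the mock cells, followed from the minimum mean. The epithelial sodium channel subunits Scnn1a (0.278 and 1.01) and Scnn1b (0.188 and 0.698) were under the minimum mean, and the chloride channel Cftr stood at 0.153 and 0.

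Transcription factors were mostly too low to compare, with 4 of 27 reaching the minimum. Tfcp2l1 was the exception in level and in difference, at 22.5 in the mock and 5.03 in the ligated cells, 4.41 times lower with 0.1 added to both (-2.14). In the other 8 compared clusters its difference ranged from -0.40 to 0.35. Its level in the rest of the libraries was 0.0509 (mock) and 0.0461 (ligated), below the 0.1 added to both values. This addition keeps differences there small, so the range cannot tell whether the fall was particular to these cells. Ehf, an epithelial ETS factor, stood at 3.14 and 1.67 (-0.87), Nfib at 2.38 and 1.48 (-0.65) and Elf3 at 0.947 and 1.54 (0.65), and none of these 3 passed.

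Secreted defence proteins moved in both directions. Wfdc12, a small WAP-domain antibacterial protein, stood at 7.23 in the mock cells and at 0.0394 in the ligated cells, about what 1 UMI in a cell of median total contributes, and its difference of -5.72 was the largest fall among the genes ranked. In the other 8 clusters it ranged from -2.69 to 0.27. Its relatives Wfdc2 (3.81 and 18.4, difference 2.24) and Wfdc18 (2.22 and 7.55, 1.72) were higher in the ligated cells. Clu, the secreted chaperone clusterin, stood at 0.116 and 6.07 (4.84), and Cst3, the protease inhibitor cystatin C, at 0.434 and 4.84 (3.21). All 5 of the 24 genes of this list that could be compared were thus past the rule. Of these, 4 were higher and 1 lower, where 10.8% and 5.75% of all genes were. Clu and Cst3 were below 1 in the mock cells and Wfdc12 in the ligated cells, so their directions followed from the minimum mean. Cxcl17 stood at 1.59 and 7.33 (2.14).

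Cyp2f2, a cytochrome P450 of secretory epithelium, stood at 1.04 in the mock and 7.31 in the ligated cells (2.70), with 0.0309 and 0.0344 in the rest of the libraries. S100a6, a calcium-binding protein, stood at 2.12 and 28.5 (3.69), and in the rest of the libraries at 8.29 and 20.4. Both were among the 12 largest rises.

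Among 32 genes associated with epithelial injury and repair, 11 could be compared and 8 were higher past the rule, where 10.8% of all genes were. Besides Clu, Krt7 and S100a6 these were Ly6a (2.83 and 9.98), Ly6d (1.36 and 4.21) and Ly6e (4.64 and 11.5), which encode surface proteins of the Ly6 family, Anxa1 (2.78 and 6.36), an annexin, and Lgals3 (1.78 and 6.86), the lectin galectin-3. Anxa2, Anxa3 and S100a11 did not pass (differences 0.88, 0.03 and 0.43). Other genes of the list were under the minimum mean, among them Vim (0.45 and 1.43), Tm4sf1 (0.439 and 1.12), Spp1 (0.0422 and 0.847), Lcn2 (0.0218 and 0.368) and Cd44 (0.0991 and 0.0389). Of 22 cell cycle genes, 2 could be compared and none was past the rule, and Mki67, Ccnb1 and Birc5 were at 0 in both libraries. Pcna (0.0601 and 0.708), Stmn1 (0.278 and 0.933) and Top2a (0 and 0.194) were under the minimum mean.

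**Figure D4:**
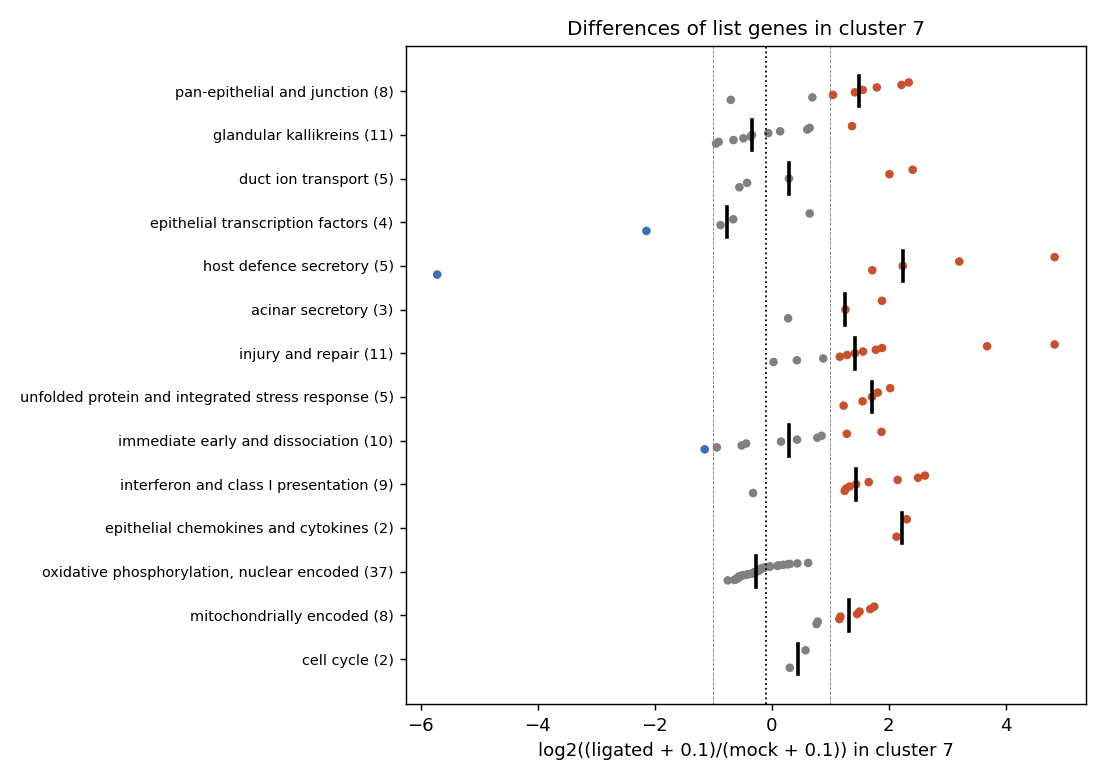
Differences of the list genes that could be compared in cluster 7, on the log2 scale, with their number in brackets. Each point is a gene (red higher, blue lower past the rule, grey neither), bars mark list medians and the dotted line the median over all 1339 genes (-0.10), and the lists of junction, injury, chaperone and class I genes lie mostly to its right while the 37 nuclear-encoded oxidative phosphorylation genes lie mostly to its left.

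Cluster 7 had the highest summed level of nuclear-encoded oxidative phosphorylation genes of any cluster, with 37 genes giving 664.6 in the mock and 543.4 in the ligated cells, against 59.95 to 145.4 and 93.7 to 173.3 in the other clusters. The 13 mitochondrially encoded genes went the opposite way. They summed to 32.9 and 76.0 in cluster 7, the lowest of the 12 clusters in either library, against 94.1 to 318.5 in the other mock and 243.6 to 318.8 in the other ligated clusters. Malat1, an RNA kept in the nucleus, was also lowest in cluster 7, at 17.9 and 81.4, against 30.8 to 1223 and 173.3 to 1116.

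**Figure D5:**
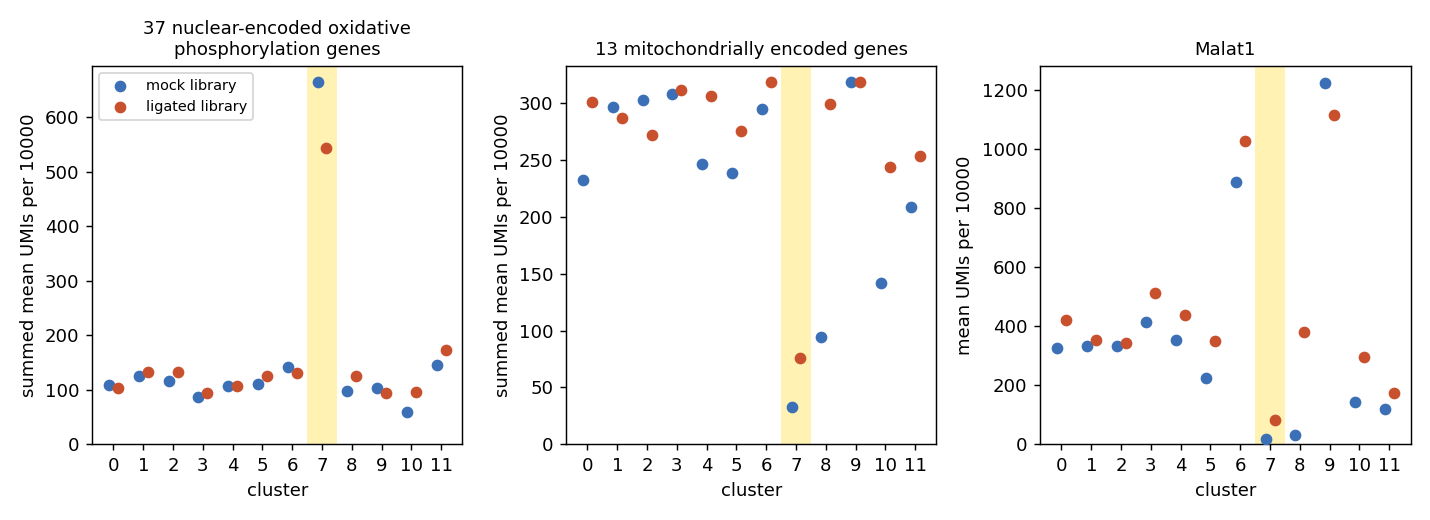
Summed level of 37 nuclear-encoded oxidative phosphorylation genes (left), of 13 mitochondrially encoded genes (middle) and level of Malat1 (right) in each of the 12 clusters, in mean UMIs per 10000, for the mock and the ligated library. Cluster 7, shaded, is highest in the left panel (664.6 and 543.4) and lowest in the other panels.

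Between the libraries, none of the 37 nuclear-encoded genes was past the rule, where 16.6% of all genes were. Their median difference was -0.26, against -0.10 over all genes. Cox7c stood at 47.7 and 32.3 (-0.56), Cox8a at 39.8 and 36.6 (-0.12) and Atp5b, a subunit of ATP synthase, at 30.8 and 26.1 (-0.24). Of 8 mitochondrially encoded genes that could be compared, 6 were higher past the rule, where 10.8% of all genes were. Among them mt-Co3 stood at 4.60 and 15.8 (1.76) and mt-Co1 at 4.89 and 11.2 (1.18). Malat1 had a difference of 2.18. After subtraction of the other clusters' mean profile (described with the other cell types below), mt-Nd4 (1.46) kept its call, mt-Co3 was at 0.58, mt-Co1 at -1.45 and mt-Cytb at -0.10, while mt-Co2, mt-Nd1 and Malat1 were under the minimum mean. Among the 12 largest falls, Ogdh, an enzyme of the tricarboxylic acid cycle, stood at 4.17 and 1.00 (-1.95), and Sdha, the flavoprotein of succinate dehydrogenase, at 7.26 and 2.83 (-1.33). Sdhb, the iron-sulfur subunit of the same complex, stood at 7.73 and 8.29 (0.10). Acadsb, an acyl-CoA dehydrogenase, stood at 3.46 and 1.08 (-1.60), and Clybl, a citramalyl-CoA lyase, at 3.25 and 1.11 (-1.47). In the other 8 clusters Ogdh ranged from -0.72 to -0.23 and Sdha from -0.52 to 0.08.

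Chaperones of the endoplasmic reticulum that could be compared were higher in the ligated cells. Of 20 genes of the unfolded protein and integrated stress response, 5 could be compared. All 5 were higher past the rule, where 10.8% of all genes were. They were Hspa5 (0.509 and 2.04), Hsp90b1 (0.50 and 2.35), Calr (0.813 and 2.04), Pdia3 (0.654 and 2.38) and Dnajc3 (0.503 and 1.67). All 5 were below 1 in the mock cells, so their direction followed from the minimum mean and their number is no result about the list. After subtraction of the other clusters' mean profile, Hspa5, Hsp90b1 and Calr were under the minimum mean, and Pdia3 (1.88) and Dnajc3 (1.92) kept their calls. The stress transcription factors Atf4 (0.951 and 0.64) and Ddit3 (0.324 and 0.396) were under the minimum mean. Heat shock chaperones of mitochondria stood lower, with Hspe1 at 9.61 and 4.30 (-1.14, past the rule) and Hspd1 at 6.20 and 3.20 (-0.93, not past it). Of 26 immediate early and dissociation genes, Hspe1 and Hspd1 among them, 10 could be compared. Fos (0.743 and 3.0) and Junb (1.05 and 2.70) were higher past the rule and Hspe1 was lower, where 10.8% and 5.75% of all genes were. The direction of Fos, below 1 in the mock cells, followed from the minimum mean.

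Genes of antigen presentation by class I molecules and of the interferon response that could be compared were mostly higher as well. Of 32 such genes, 9 could be compared and 8 were past the rule, all higher, where 10.8% of all genes were. After subtraction H2-Q7 and Bst2 were under the minimum mean. H2-K1 stood at 2.40 in the mock and 14.1 in the ligated cells (2.50), H2-D1 at 1.40 and 9.16 (2.62) and B2m, the light chain of class I molecules, at 4.13 and 9.96 (1.25). Bst2 (0.315 and 1.75), Ifitm3 (2.51 and 8.14) and Psmb8, a subunit of the immunoproteasome (0.946 and 2.43), were among the others, and Ifi27 did not pass (8.33 and 6.67). Bst2, Psmb8 and H2-Q7 were below 1 in the mock cells, so their direction followed from the minimum mean. The difference of H2-K1 in the other 8 compared clusters had a median of 0.52 and that of B2m 0.04. These genes are expressed by most cells of the gland, and in the rest of the libraries H2-K1 stood at 18.5 and 25.2 and B2m at 19.1 and 18.4. Cd74, the chaperone of class II molecules, stood at 0.201 and 4.97 (4.07) in cluster 7 and at 4.74 and 12.2 elsewhere. Its mock level was below 1, so its direction followed from the minimum mean too.

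RNA of other cell types was present in cluster 7, and over their markers together the proportion was higher in the ligated library. Markers of endothelial, fibroblast, mural, macrophage, T and natural killer cells stood at a median of 7.63% of their mean over the other clusters in the mock library (44 of 56 markers above 0) and at 22.8% in the ligated library (55 of 59). The 11 endothelial markers summed to 10.6 in the mock and 16.7 in the ligated cells, or 4.34% and 8.39% of the sum in endothelial-like cluster 0. The 11 fibroblast markers summed to 2.45 and 9.51, with Col1a1, Pdgfra and Mfap5 at 0 in the mock cells. The 11 macrophage markers summed to 0.321 and 6.0, with 7 at 0 in the mock cells, Csf1r among them, and 2 in the ligated cells (Adgre1 and Mrc1). The 10 natural killer markers summed to 1.55 and 8.26, with Gzma and Eomes at 0 in the mock cells, and the 10 T cell markers to 0.53 and 1.27. T cell markers differed from the pooled figure, with a median of 25.3% of their level elsewhere in the mock and 13.6% in the ligated library. The 10 mural markers summed to 1.58 and 2.62 and the 10 acinar markers to 3.29 and 6.91, of which Prol1, a proline-rich secreted protein, gave 1.62 and 6.28. Of 28 acinar secretory genes, 3 could be compared. Prol1 (1.89) and Scgb2b27 (1.55 and 3.85, 1.26) were higher past the rule, where 10.8% of all genes were.

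These levels move with the differences given above, and their part in them was not tested. In the same terms the mitochondrially encoded genes of cluster 7 stood at 13.1% (mock) and 25.9% (ligated) of their level in the rest of the same library, and Malat1 at 5.12% and 18.8%. When the mean profile of the other clusters was subtracted at 7.63% and 22.8%, the differences were 1.63 for Klk1, 1.68 for Krt7, 2.05 for Epcam, 2.28 for Atp1b1, 2.50 for Wfdc2, 5.75 for Clu, 4.18 for S100a6, 3.23 for H2-K1, -1.89 for Tfcp2l1 and -6.09 for Wfdc12. Of 75 named genes past the rule, 53 still passed it after this step. Levels that became negative were set to 0, which can enlarge a difference, as for H2-D1 (2.62 before and 5.69 after). The 53 also hold Rnasek, Atp6v0c, Nme2, Grcc10 and Rpl13a, which were higher in all 8 other compared clusters. Passing after subtraction is thus no measure of how firm a call is. The subtraction left no Malat1 in either library. Mgp, a matrix protein of stromal cells (0.497 and 7.83), Ccl5 (1.72 and 8.91) and Nkg7 fell below the minimum mean, as did Cst3, Hspa5, Hsp90b1, Calr and Bst2.

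Part of the ranked list was shared with other clusters. Among the 12 largest rises, Rnasek (0 and 6.91), Atp6v0c (0 and 4.32), Nme2 (0.719 and 17.7), Grcc10 (0.364 and 4.34) and Rpl13a (1.71 and 12.4) were higher past the same difference in all 8 other compared clusters, Mgp in 7, and Cd74 and Apoe (0.518 and 7.32) in 5 each. Among the 12 largest falls, Lars2 (14.1 and 3.49) was lower in 7 of the 8. Klk1 was itself past this difference in all 8, at the low levels given above. Symbols listed in a single library were left out, 16 of them with a mean of at least 1 in cluster 7, such as Aes (14.6 in the mock cells) and Tle5 (10.1 in the ligated cells), which are older and current names of the same gene. The libraries thus differed in the gene annotation used, and its part in the differences shared by all clusters was not tested.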

How the data were processed

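The authors deposited tables of cluster means, and the tables of all 12 clusters, with both libraries together and split by condition, were used here. The tables of the Pdgfr and Gli1 subset were not used here. The deposited unit is neither a count nor CPM (unit other), since every column sums to 10000, and the reading as mean UMIs per 10000 UMIs rests on the values. Cell Ranger 6.0.1, Seurat and the build mm10 are named in the submitters' processing notes, while filters and clustering are not given in the sources used here. With no counts per cell, no count model was fitted. Among the 20140 gene names, 21 had turned into calendar dates and were put back by their place in the gene order.

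Cell numbers came from the weight that turns split means into joint means, as the smallest whole denominator within 2e-09. This denominator was multiplied by a whole number where that gave clearly more whole UMI totals. UMI totals came from genes seen in 1 cell, where 10000 divided by the summed value was whole within 1e-06, kept where at least 2 genes gave it. Deeper cells are favoured by this. The pseudocount was 0.1. Scripts used Python 3.11.15, numpy 2.4.6, pandas 2.3.3 and scipy 1.17.1, and were tested on simulated data.

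Cluster members, gene lists and tests were chosen with earlier results of these data known. Genes were named where they belong to a list, are among the first 20 by ratio to the highest other cluster, among the 12 largest rises or falls with a mean of at least 2, or among the 10 highest levels of a library. Promoter windows were taken from RefSeq (GRCm38.p6) and transcripts from GENCODE M21, both of the build mm10. Every value column had a sample or was a joint column, and 0 columns were left without one. Doublets were not called here. Some members of the lists are not reported here.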

Additional observations from a re-analysis of the deposited data

How the results depend on the processing

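The number of genes past the size rule in cluster 7 (222, of which 145 higher and 77 lower) depended most on the thresholds. It was 102 (82 and 20) with a pseudocount of 1, 505 (286 and 219) with a minimum mean of 0.5, 37 (25 and 12) with a minimum of 5, 2308 (1417 and 891) with no filter, and 51 (47 and 4) at a difference of at least 2. Genes of the fixed lists past the rule numbered 49 (46 higher and 3 lower). They were 20 (18 higher) with a minimum mean of 5, 119 (101 and 18) with no filter and 18 (16 higher) at a difference of at least 2, and 7 were lower with a minimum of 0.5. The other alternatives (a pseudocount of 0.01, symbols of 1 library kept, rescaling without mitochondrially encoded genes, centring, subtraction) kept these counts within 1.5 times. The share of higher genes among those called was 65.3% in the reported fit, 80.4% with a pseudocount of 1, 92.2% at a difference of at least 2 and 56.6% with a minimum mean of 0.5. Of 1565 values of named genes, called or not, that still met the minimum mean under an alternative, 1494 kept their status. Genes without a call in either fit are among these 1494. A call was lost in 66, of which 46 at a difference of at least 2, and gained in 3, and 2 turned in sign. Genes that fell under the minimum are not in this tally, and under subtraction, with negative levels set to 0, 53 of 75 named calls remained. Those that turned in sign were mt-Co1 (-1.45, past the rule the other way) and mt-Cytb (-0.10, no longer past it). Both did so after subtraction of the other clusters' mean profile, and the cause was not tested. The shares of cells were the same by least squares. The level of duct genes outside cluster 7 was 0.861% (mock) and 0.772% (ligated) by the mean over markers, against 0.129% and 0.445% by the median, so its order between the libraries turned. No paired analysis was possible because each condition has 1 library. The low UMI totals limit every gene below a mean of about 1, and no replicate spread is known.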
